A study of Mus musculus with 8 samples.

Results

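The Fc gamma receptors and their partners are the genes through which cells bind and respond to immunoglobulin G (IgG). The 6 genes described here are Fcgr1, Fcgr3, Fcgr4, Fcgr2b, Fcer1g and Fcgrt, and they were covered by 11 of the 34958 probe sets that carried exactly 1 gene symbol and by 6 of the 18193 genes measured. The group was chosen by the knockout and wild-type signals of these same arrays, in which Fcgr2b and Fcgr1 had been seen to be higher in knockout arrays of both tissues. Knockout minus wild-type values of the 6 genes are therefore given as a description, with no test.

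RNA from mice was hybridised to 8 Affymetrix arrays, with 2 arrays, lettered A and B, for each of 4 groups: Aire-knockout spleen, Aire-wild-type spleen, Aire-knockout lymph node and Aire-wild-type lymph node. Aire is the autoimmune regulator, a nuclear protein known for switching on tissue antigens in thymic epithelium, and the study concerned cells that express it outside the thymus. The labels give no strain, age, sex, treatment, cell type or sorting step, nor the allele behind the knockout, and they do not say what A and B stand for or whether the arrays of a group came from separate animals. The p-values below therefore measure only the spread between these samples. Sex-linked signals, given below, differed between arrays A and B of each group, so that spread is not technical alone. How much of it comes from animals and how much from technique is not known.

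Activating Fc gamma receptors bind the constant region of IgG in immune complexes and signal through an immunoreceptor tyrosine-based activation motif (ITAM), which most of them borrow from the common gamma chain encoded by Fcer1g. The inhibitory receptor Fcgr2b carries an inhibitory motif in its own tail, recruits the lipid phosphatase encoded by Inpp5d and dampens activating signals in myeloid cells and B cells. Fcgrt encodes the heavy chain of the neonatal Fc receptor, which resembles an MHC class I molecule and returns IgG from endosomes to the cell surface.

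The promoters of 5 of these genes are shown because 4 of them belong to receptors whose signals were higher together on knockout arrays, while that of Fcer1g belongs to the shared chain, whose signal differed little. Each is the 250 bases before the start of the gene in RefSeq on build GRCm38.p6. All 6 genes had an entry. The window of Fcgr1 lies at chr3:96293970-96294219 on the minus strand, that of Fcgr3 at chr1:171059404-171059653 on the minus strand and that of Fcgr4 at chr1:171018676-171018925 on the plus strand. Those of Fcgr2b and Fcer1g lie at chr1:170976072-170976321 and chr1:171234350-171234599, both on the minus strand. Capitals mark matches to 3 letter patterns, searched on both strands.
Fcgr1: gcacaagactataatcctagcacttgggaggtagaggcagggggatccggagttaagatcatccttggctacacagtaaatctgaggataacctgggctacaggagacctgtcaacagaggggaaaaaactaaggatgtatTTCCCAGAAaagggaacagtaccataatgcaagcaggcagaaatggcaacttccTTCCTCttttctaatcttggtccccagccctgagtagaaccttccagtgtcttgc
Fcgr3: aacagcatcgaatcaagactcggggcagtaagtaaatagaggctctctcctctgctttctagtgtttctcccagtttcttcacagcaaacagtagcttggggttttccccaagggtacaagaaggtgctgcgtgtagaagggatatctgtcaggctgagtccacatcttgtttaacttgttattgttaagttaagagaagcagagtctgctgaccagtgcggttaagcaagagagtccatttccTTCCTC
Fcgr4: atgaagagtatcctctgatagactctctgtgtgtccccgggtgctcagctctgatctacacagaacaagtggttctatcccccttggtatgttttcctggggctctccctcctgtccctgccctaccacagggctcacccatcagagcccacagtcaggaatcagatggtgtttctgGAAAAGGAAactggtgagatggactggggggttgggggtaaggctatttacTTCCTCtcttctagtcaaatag
Fcgr2b: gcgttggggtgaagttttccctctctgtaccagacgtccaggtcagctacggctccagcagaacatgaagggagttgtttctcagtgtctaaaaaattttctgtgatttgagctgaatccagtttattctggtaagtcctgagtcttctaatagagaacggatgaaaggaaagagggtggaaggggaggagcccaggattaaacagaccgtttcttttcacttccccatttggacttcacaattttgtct
Fcer1g: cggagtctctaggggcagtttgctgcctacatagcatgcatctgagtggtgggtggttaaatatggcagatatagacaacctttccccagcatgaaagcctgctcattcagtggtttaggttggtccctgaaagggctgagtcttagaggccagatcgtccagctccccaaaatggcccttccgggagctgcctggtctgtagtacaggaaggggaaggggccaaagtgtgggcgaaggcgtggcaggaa

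The patterns were GAGGAA, the core bound by the myeloid and B cell factor PU.1, TTCNNNGAA, the interferon-gamma activated site bound by STAT proteins, and GAAANNGAA, a pattern bound by interferon regulatory factors. None of the marked matches overlap each other. The Fcgr1 window held TTCCCAGAA, a match to the interferon-gamma activated site, starting 109 bases before the gene start, and TTCCTC, the PU.1 core on the other strand, at 55 bases. Fcgr3 held TTCCTC at 6 bases. Fcgr4 held TTCCTC at 22 bases and GAAAAGGAA, a match to the interferon regulatory factor pattern, at 73 bases. The windows of Fcgr2b, Fcer1g and Fcgrt held none of the 3 patterns. Of 32851 promoter windows of the same length, 23.25% held GAGGAA, 7.02% held TTCNNNGAA and 7.129% held GAAANNGAA. These are descriptions of letters in a window.

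Each value is a deposited MAS5 signal, a linear intensity with 1 value per probe set. Array medians lay between 53.8 and 65.3, and on every array the trimmed mean was 250. The targeted gene was lower on all 4 knockout arrays, with Aire signals of 957 and 2527 in knockout spleen against 4782 and 4750 in wild-type spleen, and 864 and 1144 in knockout lymph node against 3380 and 3322 in wild-type lymph node. Whether its probe set lies within the deleted part was not checked here. Xist, which marks female RNA, ranged from 15.5 to 7851 and the Y-linked Eif2s3y from 4.21 to 2094, so the mix of sexes differed between arrays. Xist was 15.5 and 23.3 on the knockout arrays B of spleen and lymph node, and at least 3350 on all others. Eif2s3y was 20.1 and 4.21 on the wild-type arrays A of spleen and lymph node, and at least 569 on all others. The mix was thus not balanced between genotypes or between letters, and values with a Y-linked covariate are given below. The knockout spleen array A stood apart: its summed signal over 8 neutrophil markers was 9545, against 236 on knockout spleen array B and 475 and 476 on the wild-type spleen arrays. Of the labelled tissues' lymphocyte markers, Cd79b lay between 43.3 and 528 and Cd3e between 24.4 and 347, above the floor on every array. Their lowest values were under the array medians. Of the same B cell list as Cd79b, Pax5 was at the floor on 5 arrays and Cd22 on 1. Zbtb46, which marks conventional dendritic cells, lay between 2122 and 3611, whereas Cd209a of the same list was at the floor on all 8 arrays. Signals below 9.58, the 20th percentile of all values after arrays were brought to a common median, were raised to that value, called the floor.

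Fcgr1 encodes the high-affinity receptor for IgG, carried by macrophages, monocytes and some dendritic cells. Probe set 1417876_at, which stood for the gene, had signals of 149 and 67.1 in knockout spleen and 6.55 and 1.53 in wild-type spleen. In lymph node it had 540.1 and 152 in knockout and 18.6 and 23.3 in wild-type arrays. Every knockout array was thus above every wild-type array of either tissue. The log2 difference, knockout minus wild-type, was 3.38 ± 0.66 (SE, n = 2 against 2) in spleen, which is at least 10.4-fold because both wild-type values were at the floor. In lymph node it was 3.74 ± 0.66 (SE, n = 2 against 2), or 13.4-fold. Within the knockout groups array A was higher than array B, by 2.49-fold in spleen and 3.26-fold in lymph node.

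The other probe set of Fcgr1, 1436625_at, ran differently. It had signals of 35.6 and 29.9 in knockout spleen against 51.9 and 52.8 in wild-type spleen, and 54.0 and 25.2 in knockout lymph node against 46.3 and 22.5 in wild-type lymph node. Its log2 difference was -0.79 in spleen, with knockout below wild-type and no overlap, as in 23.9% of all tested genes, and 0.15 in lymph node, where the groups overlapped. The higher Fcgr1 signal of the knockout arrays thus rests on 1 of its 2 probe sets, and the place of each in the transcript was not analysed here.

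Fcgr3 encodes a low-affinity activating receptor found on macrophages, neutrophils, natural killer cells and mast cells. Its probe set 1448620_at had signals of 563 and 98.3 in knockout spleen and 51.2 and 44.9 in wild-type spleen. In lymph node it had 522 and 164 in knockout and 162 and 25.4 in wild-type arrays. Knockout lay above wild-type within each tissue without overlap, but by a margin of 164 to 162 in lymph node, and the spread between arrays of a group was wide. Array A was 6.42 times array B in knockout spleen, 2.93 times in knockout lymph node and 5.40 times in wild-type lymph node. The log2 difference was 2.19 ± 1.09 (SE) in spleen and 2.15 ± 1.09 in lymph node, or 4.55-fold and 4.44-fold.

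Fcgr4 encodes an activating receptor of intermediate affinity, found on monocytes, macrophages and neutrophils. Its probe set 1425225_at had signals of 68.8 and 18.5 in knockout spleen and 15.3 and 15.8 in wild-type spleen. In lymph node it had 246 and 69.6 in knockout and 1.85 and 22.3 in wild-type arrays. The groups did not overlap within either tissue, although the knockout spleen array B lay close to its wild-type arrays. The log2 difference was 1.09 ± 0.85 (SE) in spleen, or 2.13-fold, and 3.05 ± 0.85 in lymph node, or at least 8.28-fold since 1 of its wild-type values was at the floor.

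Fcer1g, the common chain that Fcgr1, Fcgr3 and Fcgr4 need for assembly and signalling, had nearly level signals. They were 2359.8 and 2052 in knockout spleen against 2665 and 1895.0 in wild-type spleen, and 2410.4 and 2157 in knockout lymph node against 2125 and 1618 in wild-type lymph node. In spleen the groups overlapped, and in lymph node both knockout arrays were slightly higher. The log2 difference was -0.14 ± 0.32 (SE) in spleen and 0.26 ± 0.32 in lymph node.

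Fcgr2b, the inhibitory receptor and the only classical Fc gamma receptor of B cells, was measured by 3 probe sets with signal. Probe set 1435477_s_at, which stood for the gene, had signals of 36.5 and 33.5 in knockout spleen and 7.61 and 14.5 in wild-type spleen. In lymph node it had 136 and 132 in knockout and 21.6 and 14.5 in wild-type arrays. All 4 knockout arrays lay above all 4 wild-type arrays, and with this probe set knockout array A was 1.22 times array B in spleen, while the arrays differed by 1.05-fold in lymph node. The log2 difference was 1.50 ± 0.36 (SE) in spleen, at least 2.82-fold since 1 of its wild-type values was at the floor, and 2.88 ± 0.36 in lymph node, 7.37-fold.

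Of the other 4 probe sets of Fcgr2b, 2 gave signal and 2 lay at or near the floor. Probe set 1455332_x_at had 106 and 33.4 in knockout spleen against 6.70 and 9.06 in wild-type spleen, and 132 and 122 in knockout lymph node against 18.5 and 6.38 in wild-type lymph node. Probe set 1451941_a_at had 54.6 and 25.9 in knockout spleen against 12.9 and 0.518 in wild-type spleen, and 35.0 and 33.0 in knockout lymph node against 2.79 and 1.39 in wild-type lymph node. All 3 measured probe sets thus had knockout above wild-type without overlap in both tissues, with log2 differences of 1.50, 2.60 and 1.72 in spleen and 2.88, 3.26 and 1.76 in lymph node. In knockout spleen array A was 3.56 times array B with 1455332_x_at and 2.36 times with 1451941_a_at. Probe set 1435476_a_at stayed between 1.03 and 7.93 and 1447622_at between 0.0801 and 18.7. Suffixes _s_at and _x_at mark probe sets that may also bind related transcripts, and since Fcgr2b and Fcgr3 are similar in sequence, binding of Fcgr3 transcripts was not tested.

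Fcgrt, the neonatal Fc receptor heavy chain, had signals from 1416978_at of 146 and 32.6 in knockout spleen and 75.5 and 8.34 in wild-type spleen. In lymph node it had 331 and 276 in knockout and 115 and 118 in wild-type arrays. The groups overlapped in spleen, where each genotype varied between its own arrays by 5.02-fold in knockout and at least 8.30-fold in wild-type, and did not overlap in lymph node. The log2 difference was 1.32 ± 1.07 (SE) in spleen, at least 2.49-fold since 1 of its wild-type values was at the floor, and 1.34 ± 1.07 in lymph node, 2.53-fold.

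**Figure D1:**
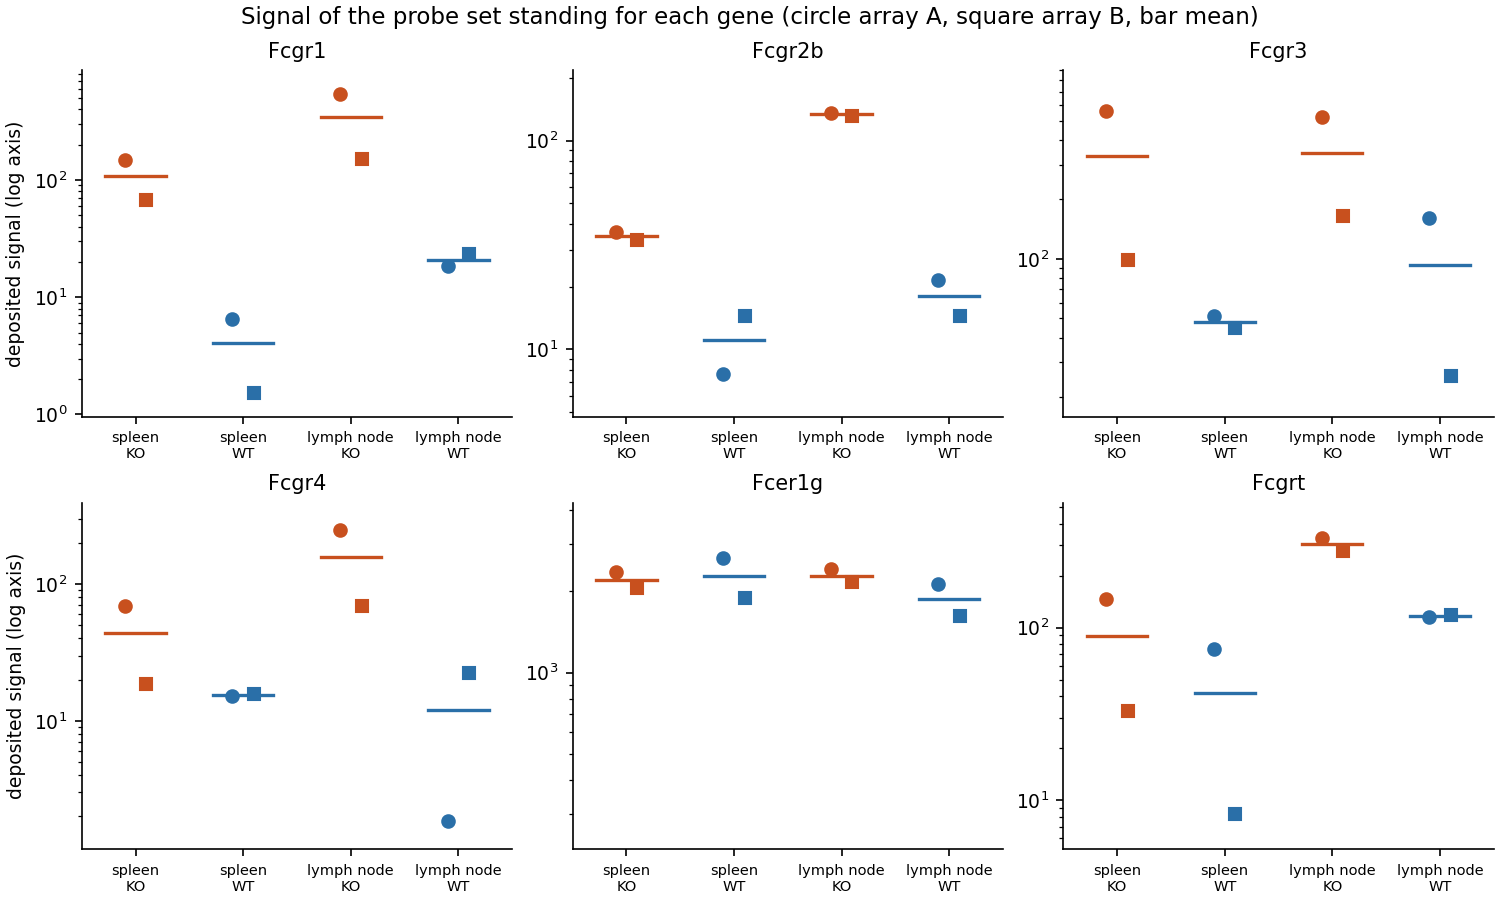
Deposited signal (linear intensity, log axis) of the probe set that stands for each of the 6 genes, in knockout (orange) and wild-type (blue) arrays of spleen and lymph node. Circles are arrays A, squares arrays B and bars the mean of 2 arrays; the knockout arrays of Fcgr1 and Fcgr2b lie above all wild-type arrays, and Fcer1g stays between 1618 and 2665.

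**Figure D2:**
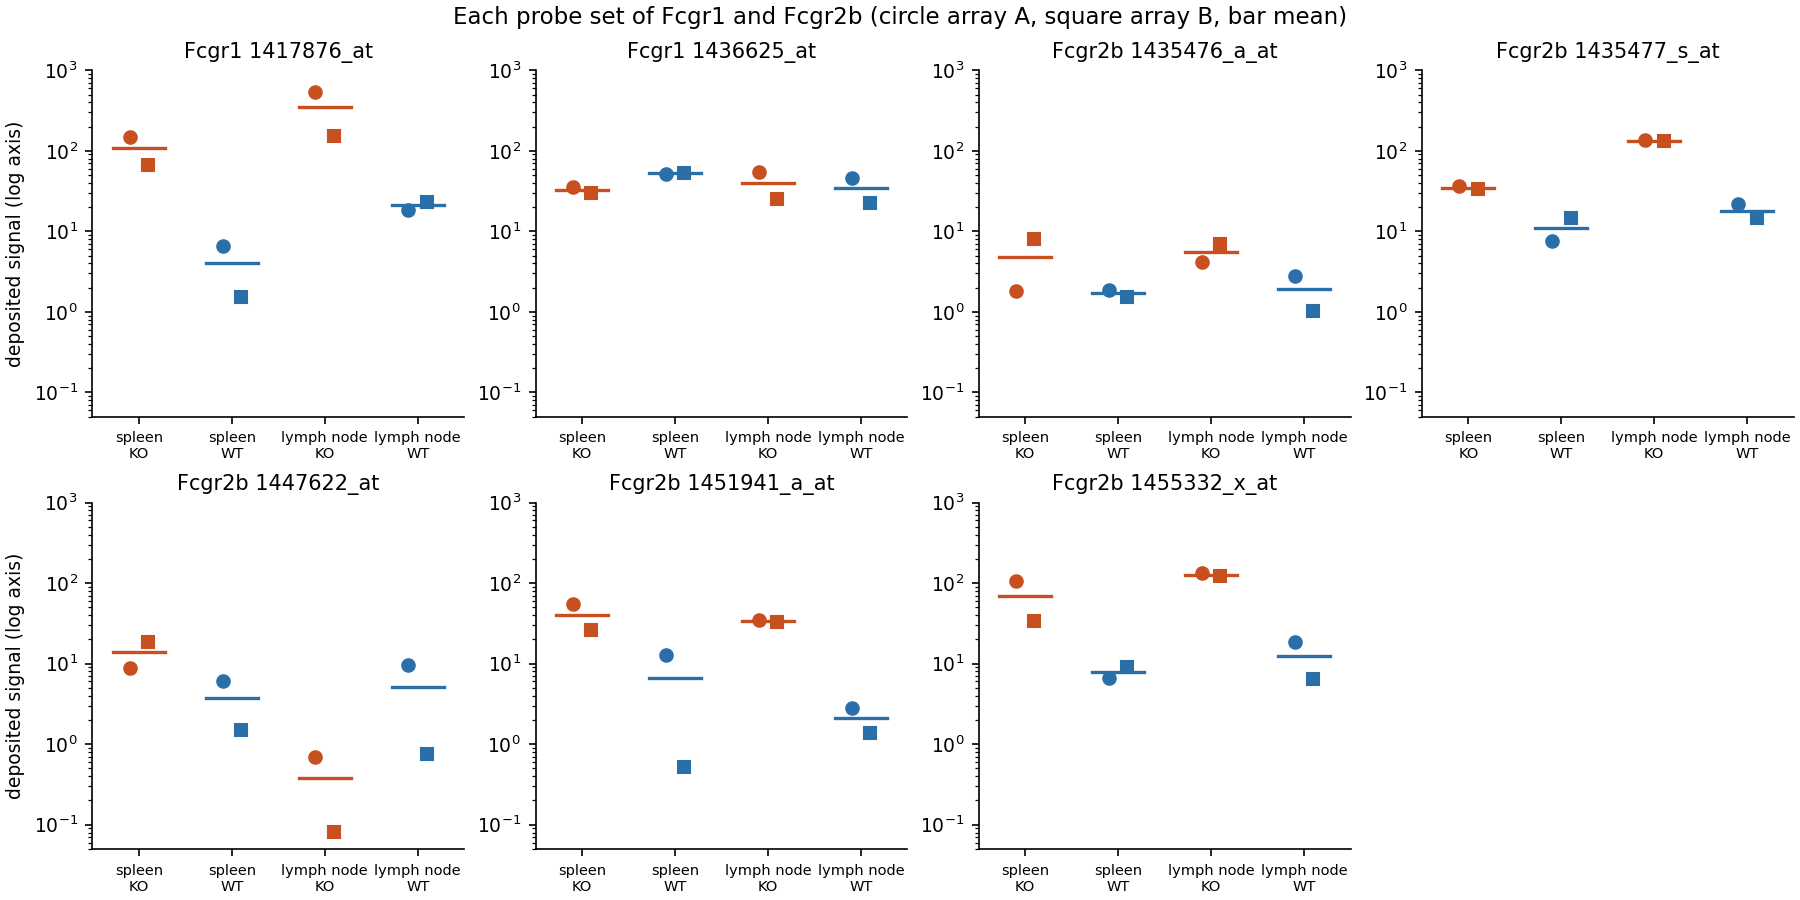
Deposited signal (linear intensity, log axis) of every probe set of Fcgr1 and Fcgr2b, in knockout (orange) and wild-type (blue) arrays of spleen and lymph node, with circles for arrays A, squares for arrays B and bars for the mean of 2 arrays. Probe set 1436625_at of Fcgr1 does not show the difference of 1417876_at, and 3 of the 5 probe sets of Fcgr2b have knockout above wild-type in both tissues.

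Counted over the group, knockout arrays lay above wild-type arrays without overlap for 4 of 6 genes in spleen, where 13.3% of all tested genes did, and for 6 of 6 in lymph node, where 14.6% did. In both tissues this held for Fcgr1, Fcgr2b, Fcgr3 and Fcgr4, against 3.06% of all tested genes. All 4 knockout arrays exceeded all 4 wild-type arrays for Fcgr1 and Fcgr2b, against 1.44% of all tested genes. These counts restate the values on which the genes were chosen, and nothing is read from them. All 6 genes passed the filter on low signals, which asked for a signal above the pooled median of 59.0 on at least 2 arrays. Fcgr1, Fcgr2b and Fcgr4 passed it through their knockout arrays alone, so that among genes that pass they had to be higher there.

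The 4 groups fell in a similar order for Fcgr1, Fcgr2b and Fcgr3, with knockout lymph node highest, knockout spleen next, then wild-type lymph node and wild-type spleen. For Fcgr1 the arrays of knockout lymph node and knockout spleen overlapped, while the other neighbours in the order did not. For Fcgr2b only wild-type lymph node and wild-type spleen overlapped, and for Fcgr3 every pair of neighbours did. Fcgr4 had knockout lymph node highest and wild-type lymph node lowest, with overlap between neighbours except between knockout spleen and wild-type spleen. Fcgrt was ordered by tissue first, with knockout lymph node above wild-type lymph node and both above knockout spleen and wild-type spleen, and only the highest group was free of overlap with its neighbour. For Fcer1g the order was wild-type spleen, knockout spleen, knockout lymph node and wild-type lymph node, and only the last step was free of overlap.

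The knockout arrays A carried much of the difference for some of these genes and little of it for others. With knockout array B set alone against the wild-type mean, the log2 difference of Fcgr2b was 1.35 in spleen and 2.92 in lymph node for 1435477_s_at, against 1.64 and 2.84 with knockout array A alone. Its probe set 1455332_x_at gave 1.69 and 3.26 with array B, against 3.52 and 3.26 with array A, and 1451941_a_at gave 1.10 and 1.77, against 2.34 and 1.74. In spleen array B alone thus gave a smaller difference than array A for each of these 3 probe sets, and the gap between the arrays depended on the probe set. For Fcgr1 it was 2.72 and 2.89 with array B, against 4.04 and 4.60 with array A. The difference of Fcgr1 with array B alone was smaller but above 2 in both tissues. For Fcgr3 array B alone gave 0.84 in spleen and 1.38 in lymph node, against 3.53 and 2.93 with array A. For Fcgr4 it gave 0.06 and 2.20, against 2.12 and 3.90, and for Fcgrt 0.15 and 1.27, against 2.48 and 1.41. In spleen the differences of Fcgr4 and Fcgrt therefore came almost wholly from array A.

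**Figure D3:**
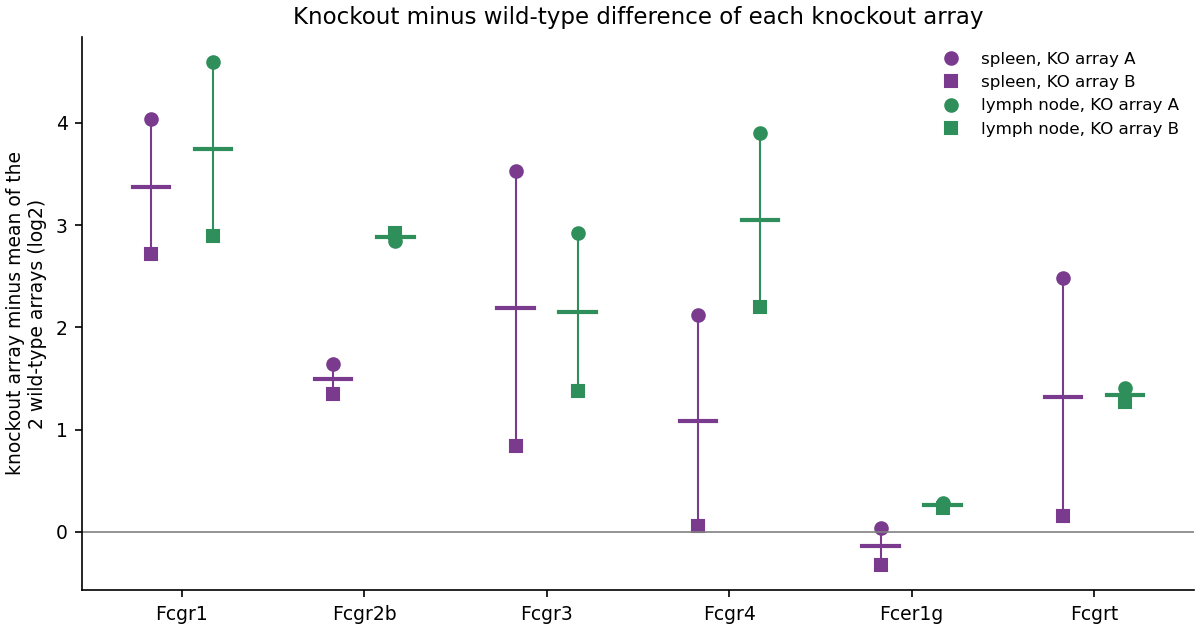
Log2 difference of each knockout array from the mean of the 2 wild-type arrays of its tissue, for the 6 genes, with spleen in purple, lymph node in green, circles for knockout array A, squares for knockout array B and bars for their mean. The points of 1435477_s_at, the probe set drawn for Fcgr2b, lie close together in each tissue, whereas those of Fcgr3 in spleen lie at 3.53 and 0.84.

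Many macrophage markers had higher signals in knockout arrays, although limma called 0 of 14 in either tissue at an adjusted p under 0.05. An unadjusted p under 0.05 was reached by 3 of the 14 in spleen, against 8.42% of all tested genes in either direction, and by 2 in lymph node, against 3.38%. Of 15 markers 14 were measured, and their summed signal was 38009 and 7254 in knockout spleen against 8699 and 5223 in wild-type spleen, and 31484 and 11439 in knockout lymph node against 18432.0 and 4914 in wild-type lymph node. Knockout lay above wild-type without overlap for 7 of the 14 in spleen, where 13.3% of all tested genes did, and for 3 of the 14 in lymph node, where 14.6% did. It lay below without overlap for 0 of the 14 in spleen and 1 in lymph node, against 23.9% and 16.2% of all tested genes, and none of the 14 was at the floor on all arrays. Within each tissue the sum was highest on knockout array A, as the signals of Fcgr1, Fcgr3 and Fcgr4 were. On the knockout arrays B the sum lay below wild-type array A of the same tissue, at 7254 against 8699 in spleen and 11439 against 18432.0 in lymph node. The order depended on the measure. By mean log2 signal of the 14, knockout spleen array B was at 7.80, above 7.51 and 6.11 on wild-type spleen arrays A and B. Knockout lymph node array B was at 8.13, between 8.39 and 6.59 on wild-type lymph node arrays A and B. Between knockout array B and wild-type array A, Fcgr1 had 67.1 against 6.55 in spleen and 152 against 18.6 in lymph node. Fcgr2b had 33.5 against 7.61 in spleen and 132 against 21.6 in lymph node. Fcgr3 had 98.3 against 51.2 and 164 against 162, and Fcgr4 had 18.5 against 15.3 and 69.6 against 1.85. Fcgrt had 32.6 against 75.5 and 276 against 115, and Fcer1g had 2052 against 2665 and 2157 against 2125. The part of macrophage RNA in these values was not tested.

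Single macrophage markers differed in how they followed the genotype and the letters. Siglec1, a sialic acid receptor of tissue macrophages, had signals of 138 and 75.0 in knockout spleen against 9.89 and 25.0 in wild-type spleen, and 292 and 160.0 in knockout lymph node against 17.4 and 2.15 in wild-type lymph node. Adgre1, which encodes the F4/80 antigen, had 82.7 and 83.4 in knockout spleen against 42.4 and 27.6 in wild-type spleen, and 229 and 159 in knockout lymph node against 58.0 and 31.0 in wild-type lymph node. Both had all 4 knockout arrays above all 4 wild-type arrays, as Fcgr1 and Fcgr2b had and as 1.44% of all tested genes had. Lyz2, the lysozyme of myeloid cells, followed the letters as well as the genotype, with 10054 and 2371 in knockout spleen against 2067 and 186 in wild-type spleen, and 11719 and 2738 in knockout lymph node against 8600.2 and 727 in wild-type lymph node. Spic went the other way in lymph node. Its knockout array A read 692 and array B 1054, both below the wild-type signals of 1455 and 1451. Its spleen groups overlapped, with knockout at 1702 and 1317, wild-type at 1541 and 2230. Marco overlapped between genotypes in both tissues. Its lowest signal was on knockout array B each time, 18.1 for spleen, 19.6 for lymph node. The markers named singly are examples from the 14, outside the naming rule given below. The median knockout minus wild-type difference over the 14 markers was 3.74 for array A and 1.16 for array B in spleen, and 2.23 and 0.15 in lymph node.

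B cell markers, which matter for Fcgr2b, were summed over 9 genes and were 2608 and 595 in knockout spleen against 925 and 912 in wild-type spleen, and 1236 and 578 in knockout lymph node against 779 and 458 in wild-type lymph node. They were thus 2608 on knockout spleen array A and 595 on array B, arrays on which Fcgr2b had 36.5 and 33.5 with 1435477_s_at, 106 and 33.4 with 1455332_x_at and 54.6 and 25.9 with 1451941_a_at. The sum over 8 conventional dendritic cell markers stayed between 8201 and 8897 in knockout spleen and 9361 and 9596 in wild-type spleen, and between 7413 and 9011 in knockout lymph node and 8090.3 and 9249 in wild-type lymph node. The part of macrophage, neutrophil and B cell RNA in the receptor values was not tested. The labels do not say whether the RNA came from whole tissue or from sorted cells. Where it came from several cell types, more cells of a type and more RNA per cell cannot be told apart.

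**Figure D4:**
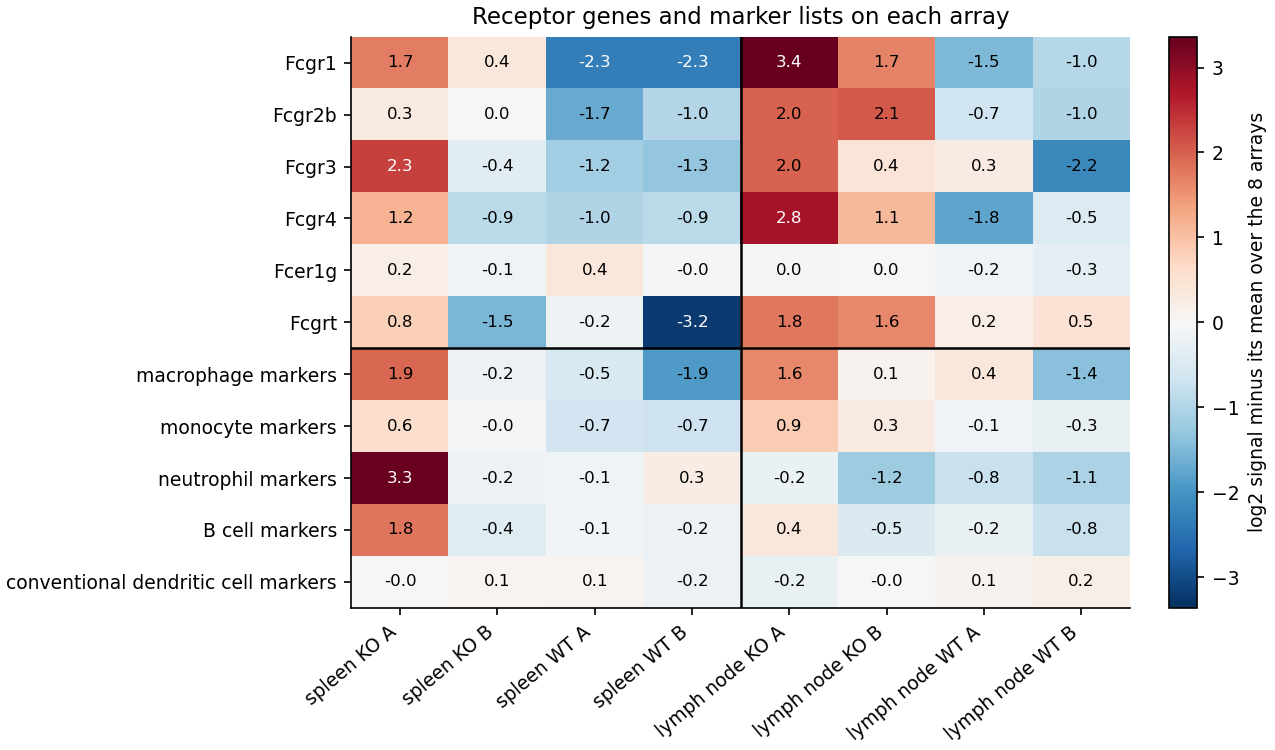
Log2 signal of each of the 6 genes (above the line) and mean log2 signal of 5 marker lists (below the line) on each of the 8 arrays, minus the mean over the 8 arrays, with red above and blue below that mean. The neutrophil and B cell lists are high on knockout spleen array A, the macrophage list on both knockout arrays A, and Fcgr2b on both knockout lymph node arrays.

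The tissue difference did not enter the choice of these genes and was tested with limma over all 11557 genes, except for Fcgr2b. That gene passed the filter only through its 2 knockout lymph node arrays, so it had to be higher in lymph node, and its tissue difference is a description. Averaged over genotypes, Fcgrt and Fcgr1 had lower values in spleen than in lymph node at an unadjusted p under 0.05, but neither passed adjustment, and 0 of all genes tested did. That level was reached by 2 of the other 5 genes, both lower in spleen, and by 10.7% of all genes. Fcgrt differed by -2.06 ± 0.76 (log2, SE), at least 4.16-fold since 1 wild-type spleen value was at the floor, with a limma p of 0.0299 and an adjusted p = 0.405. Fcgr1 differed by -1.27 ± 0.47, a fold of at least 2.42 with its wild-type spleen values at the floor, with a limma p of 0.0293 and an adjusted p = 0.405. The 95% intervals reached from -3.85 to -0.27 for Fcgrt and from -2.38 to -0.17 for Fcgr1. Fcgrt gave -1.29 without wild-type spleen array B, and Fcgr1 gave -0.46 with the mean of its probe sets and -0.73 with a floor at the 40th percentile. Fcgr2b differed by -1.18 ± 0.26, at least 2.27-fold with 1 spleen value of the wild-type at the floor. It gave -0.50 without wild-type lymph node array A and -0.72 without wild-type spleen array B, where 1455332_x_at stood for the gene, and -0.48 with that higher floor.

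Fcgr3, Fcgr4 and Fcer1g gave no tissue difference at that level. The difference, spleen minus lymph node, was -0.27 ± 0.77 for Fcgr3 (limma adjusted p = 0.941), -0.83 ± 0.60 for Fcgr4 (limma adjusted p = 0.679) and 0.21 ± 0.23 for Fcer1g (limma adjusted p = 0.801). Their 95% intervals were -2.10 to 1.56, -2.25 to 0.58 and -0.33 to 0.75, so that a fold change of the size found for Fcgrt lay within reach for Fcgr3 and Fcgr4 but not for Fcer1g.

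Within genotypes the tissue difference of Fcgrt was alike, at -2.07 ± 1.07 in knockout (signals of 146 and 32.6 in spleen against 331 and 276 in lymph node) and -2.05 ± 1.07 in wild-type arrays (75.5 and 8.34 against 115 and 118). Its spleen arrays lay below its lymph node arrays without overlap in both genotypes. Fcgr2b differed by -1.87 ± 0.36 in knockout arrays, 3.67-fold lower in spleen, and by -0.49 ± 0.36 in wild-type arrays, both given as a description. Its other measured probe sets gave -1.04 for 1455332_x_at and 0.21 for 1451941_a_at in knockout arrays, so the size of this tissue difference depends on the probe set. Fcgr1 differed by -1.46 ± 0.66 in knockout arrays (limma adjusted p = 0.943) and by -1.09 ± 0.66 in wild-type arrays (limma adjusted p = 0.698), where its spleen arrays were at the floor. Its other probe set, 1436625_at, gave -0.12 in knockout and 0.83 in wild-type arrays, with spleen above lymph node in the wild-type arrays.

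Spleen lay below lymph node without overlap for 2 of 6 genes in knockout arrays (Fcgr2b and Fcgrt), where 12.9% of all genes did, and for Fcgr2b the filter had set that direction. In wild-type arrays it did so for 2 of 6 genes (Fcgr1 and Fcgrt), against 16.1% of all genes. With 4 arrays against 4 the count was 0 of 6, against 1.90% of all genes. Over all genes limma called 0 genes in knockout arrays, where 5.06% had an unadjusted p under 0.05, and in wild-type arrays it called 1 gene, or 0.00865%, where 8.77% had an unadjusted p under 0.05. That gene was Tceal1, named after its value was seen. The difference in the knockout effect between tissues was not tested.

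**Figure D5:**
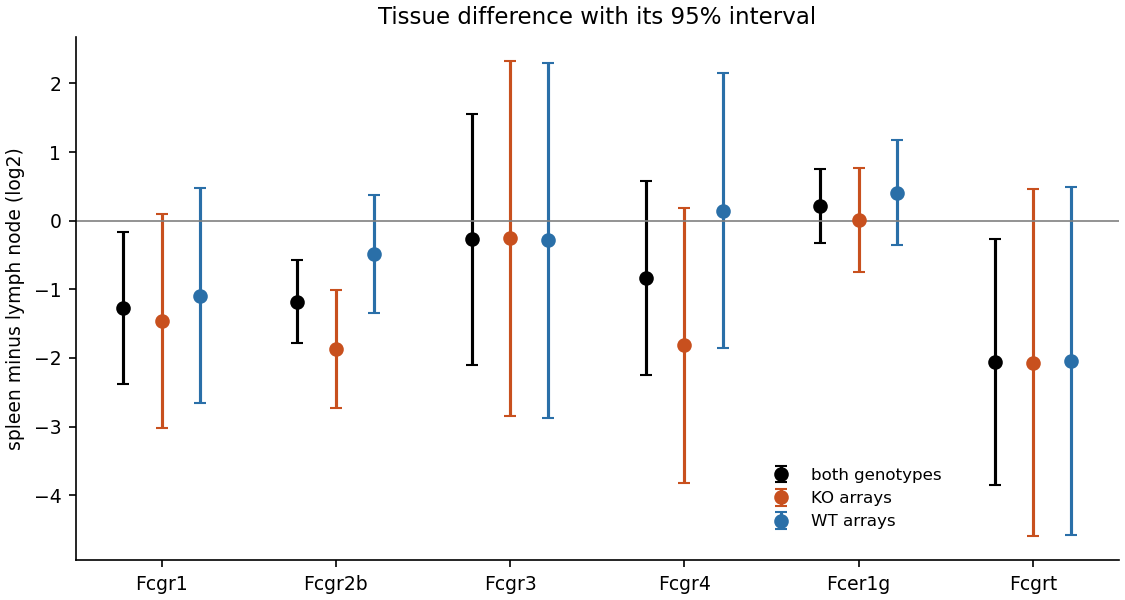
Log2 difference, spleen minus lymph node, for the 6 genes over both genotypes (black), in knockout arrays (orange) and in wild-type arrays (blue), with 95% intervals from the limma fit. The intervals over both genotypes lie below 0 for Fcgr1 and Fcgrt, neither of which passed adjustment over all genes, and those of Fcgr2b are drawn as a description.

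Other genes of the Fc receptor pathway were followed in 5 lists with 86 members, of which 74 were measured and 63 tested. By limma 0 of 63 passed in either tissue, averaged over tissues or between tissues, and 0 of all genes passed in these contrasts. At an unadjusted p under 0.05, 6 of 63 were higher and 0 lower in knockout averaged over tissues, where 8.00% of all genes reached that level. In knockout spleen 4 were higher and 1 lower (8.42% of all genes), and in knockout lymph node 0 (3.38% of all genes). The median averaged difference was 0.11 over the 63, against -0.06 over all genes.

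In activating signalling, 11 of 17 tested genes had higher values in knockout averaged over tissues, with a median of 0.21. Fyn, a Src-family kinase, had signals of 294 and 196 in knockout spleen against 61.4 and 76.1 in wild-type spleen, and 429 and 335 in knockout lymph node against 188 and 218 in wild-type lymph node. Its groups did not overlap in either tissue, and its averaged difference was 1.28 ± 0.27, 2.44-fold (limma adjusted p = 0.310). Pik3ap1, an adaptor for phosphoinositide 3-kinase, had 293 and 204 in knockout spleen against 31.2 and 95.2 in wild-type spleen, and 417 and 255 in knockout lymph node against 230 and 114 in wild-type lymph node. Its averaged difference was 1.51 ± 0.44 (limma adjusted p = 0.442). Btk, the Tec-family kinase of B cells and myeloid cells, differed by 1.27 in spleen and 0.15 in lymph node (averaged limma adjusted p = 0.657).

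In inhibitory signalling, 13 of 17 tested genes had higher values in knockout averaged over tissues, with a median of 0.25. Inpp5d, the phosphatase that Fcgr2b recruits, had signals of 360 and 379 in knockout spleen against 216 and 190 in wild-type spleen, and 428 and 320 in knockout lymph node against 347 and 206 in wild-type lymph node. It overlapped between genotypes in lymph node only, and its averaged difference was 0.59 ± 0.23, 1.51-fold (limma adjusted p = 0.593). Ptpn6, a tyrosine phosphatase that binds inhibitory motifs, differed by 0.50 ± 0.24 (limma adjusted p = 0.667) and Pag1, a membrane adaptor that holds Src kinases in check, by 1.01 ± 0.40 (limma adjusted p = 0.602). Without both knockout arrays A, 6 of 17 activating and 6 of 16 inhibitory genes had higher values, with medians of -0.10 and -0.04.

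Among receptors and adaptors that share the ITAM route, Tyrobp, an adaptor close to the common chain in function, was as level as Fcer1g. Its signals were 8505 and 10772 in knockout spleen against 10132 and 9815 in wild-type spleen, and 8029.5 and 8985 in knockout lymph node against 8363 and 9783 in wild-type lymph node. Its averaged difference was -0.15 ± 0.23 (limma adjusted p = 0.896). Clec4n, the Dectin-2 receptor that signals through the common chain, had 451 and 119 in knockout spleen against 172 and 13.6 in wild-type spleen, and 537 and 160.1 in knockout lymph node against 80.1 and 0.646 in wild-type lymph node. It followed the letters as well as the genotype, and its averaged difference was 2.78 ± 1.03 (limma adjusted p = 0.571). Cd247, the T cell receptor zeta chain, differed by -0.31 ± 0.30 (limma adjusted p = 0.826). Of 5 tested genes of this list 1 had a higher value, and the median was -0.09.

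Of the other immunoglobulin receptors, 6 of 13 were tested and 5 had higher values in knockout averaged over tissues, with a median of 0.40. Fcrls, an Fc receptor-like scavenger receptor, had 67.0 and 50.6 in knockout spleen against 12.3 and 29.8 in wild-type spleen, and 118 and 98.3 in knockout lymph node against 73.5 and 4.83 in wild-type lymph node. It did not overlap between genotypes within a tissue, and its averaged difference was 1.76 ± 0.63 (limma adjusted p = 0.550). Pigr, the transporter of polymeric IgA and IgM, differed by tissue more than by genotype: it had 147 and 102 in knockout spleen and 79.5 and 74.5 in wild-type spleen, against 45.1 and 46.4 in knockout lymph node and 43.2 and 19.5 in wild-type lymph node. Spleen minus lymph node was 1.51 ± 0.30, 2.84-fold (limma adjusted p = 0.201). Fcrla, an intracellular Fc receptor-like protein of B cells, differed by 1.58 ± 0.57 in the same direction (limma adjusted p = 0.402).

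In the list of the phagocyte oxidase and engulfment, 7 of 18 tested genes had higher values in knockout averaged over tissues, with a median of -0.07. Cybb, the catalytic subunit of the oxidase, had 2040 and 285 in knockout spleen against 163 and 76.3 in wild-type spleen, and 1985 and 411 in knockout lymph node against 808 and 197 in wild-type lymph node. It was high on both knockout arrays A, and its averaged difference was 1.90 ± 0.83 (limma adjusted p = 0.632). Its partner Cyba differed by -0.42 ± 0.22 (limma adjusted p = 0.682) and the early endosome protein Rab5a by -0.42 ± 0.21 (limma adjusted p = 0.682). Between tissues, 7.94% of the 63 pathway genes reached an unadjusted limma p under 0.05, against 10.7% of all tested genes. Of these, 2 were higher (Pigr and Fcrla) and 3 lower in spleen. The 3 were Fyn at -1.02, Plcg1 at -0.84 and Vav3 at -1.22, with limma adjusted p from 0.287 to 0.440; Vav3 was named after its value was seen.

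For each member the 3 nearest genes were taken by the root mean square difference between log2 profiles centred over the 8 arrays. Nearest to Fcgr2b were Rnase4, a secreted ribonuclease, at 0.35, the interferon-inducible Ifi204 at 0.44 and the checkpoint kinase Chek1 at 0.51. Rnase4 had signals of 65.3 and 88.6 in knockout spleen against 13.5 and 20.5 in wild-type spleen, and 212 and 226 in knockout lymph node against 42.8 and 40.6 in wild-type lymph node. Like probe set 1435477_s_at of Fcgr2b it varied little between knockout arrays A and B. Nearest to Fcgr1 were the milk casein Csn2 at 0.60, the urokinase Plau at 0.68 and the zinc finger gene Zfp28 at 0.78. Fcgr4 had the complement-related receptor Cd93 at 0.36, the chemerin receptor Cmklr1 at 0.52 and the syndecan Sdc3 at 0.60.

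The nearest genes of Fcgr3 were the kinetochore gene Ndc80 at 0.37, the T cell and stromal surface gene Thy1 at 0.41 and the microtubule regulator Stmn1 at 0.44. Thy1 had 1849 and 229.8 in knockout spleen against 229.9 and 104 in wild-type spleen, and 1310 and 396 in knockout lymph node against 300.5 and 103 in wild-type lymph node. This profile follows the letters A and B as well as the genotype, as that of Fcgr3 does. Fcgrt had Abca9 at 0.53, Stard3 at 0.62 and Ckap2l at 0.65. Fcer1g, whose own profile was nearly flat, had the proteasome subunit Psmb2 at 0.09, the phosphatase subunit Ppp2r1a at 0.09 and the translocation protein Tram1 at 0.11. Among the members themselves the closest pair was Fcgr2b and Fcgr4 at 0.80, and the most distant pair was Fcgr1 and Fcer1g at 1.97.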

How the data were processed

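The deposited values are intensity values, 1 linear signal per probe set and array, made by the authors with MAS5 per the submitters' processing notes; the version and settings are not stated in the labels. Of 45101 probe sets 64 controls were left out. Of the others 34958 carried 1 gene symbol in the platform annotation, 932 several and 9147 none, and 34754 of them were matched to current symbols through Entrez identifiers. Log2 array medians spanned 0.28, above a tolerance of 0.2, and the arrays were therefore brought to 1 common median. A floor was set at the 20th percentile, 9.58, and log2 was taken. The probe set with the highest mean log2 signal stood for a gene. Of 18193 genes, the 11557 above the pooled median of 59.0 on at least 2 arrays were tested.

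A mean for each of 4 groups was fitted to 8 arrays with limma 3.58.1 in R 4.3.3 (4 residual and 2.96 prior degrees of freedom), with Benjamini-Hochberg adjustment over all genes tested, calls at 0.05 and intervals at 95%. Precision is limited by how few arrays there are. The fit was run on simulated normal values with planted tissue shifts, drawn independently for each array and with no floor. That run checked the mean size of the recovered shifts, and it does not bear on floored or paired values. Samples were grouped by the tissue and genotype in their labels. Deviations of arrays of the same letter correlated at 0.31 between knockout tissues, 0.07 between wild-type tissues, 0.06 between genotypes in spleen and 0.22 between genotypes in lymph node, so the letters were not treated as pairs. Yet the pattern of Xist and Eif2s3y was alike in spleen and lymph node of the same genotype and letter. The tissues may therefore share source animals, which the main tissue tests do not account for. A fit with genotype and letter as a block is given below.

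The 6 members, the 5 pathway lists (86 genes) and the 14 marker lists (116 genes, of which 104 were measured) were chosen with earlier results of these data known. Genes were named by rule: every member, for each member the 3 nearest tested genes with a named symbol, and from each pathway list the 3 genes (at most) of smallest p in the averaged knockout contrast and up to 2 in the tissue contrast. Alternatives changed the scaling, the floor, the filter, the probe set, the prior, the Y-linked covariate, the letter block and the arrays included. Promoter sequences are from RefSeq on GRCm38.p6.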

Additional observations from a re-analysis of the deposited data

How the results depend on the processing

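No tissue difference of the 5 genes other than Fcgr2b passed adjustment in any alternative that gave a value, and no pathway gene passed in any of them. The lowest adjusted p over the alternatives was 0.181 for Fcgrt and 0.188 for Fcgr1. The count of genes called between tissues, 0 as reported, was 1 without median scaling, with quantile normalization, with no filter and with the mean of probe sets, 3 with a floor at the 40th percentile and 48 with a trended robust prior. It ranged from 0 to 2 with 1 array left out. In wild-type arrays, 1 as reported, it was 3 with no floor, 2 with no filter, 10 with the trended robust prior and 0 with the floor added, the 40th percentile floor, the filter on 4 arrays, every probe set, the Y-linked covariate or without both knockout arrays A. It was 0 or 1 with 1 array left out. With the replicate block, genotype and letter as a block, that count was 0, and no call of a member changed: Fcgr1 had -1.27 (limma adjusted p = 0.188). Values that changed sign were near 0 or rested on 1 array. For Fcer1g the tissue difference in knockout arrays was -0.051 without median scaling, -0.074 with quantile normalization, -0.15 without both knockout arrays A, and between -0.17 and 0.19 with 1 array left out. Its knockout difference was 0.00153 in spleen with the Y-linked covariate, -0.36 to 0.077 in spleen with 1 array left out, and averaged over tissues -0.042 without both knockout arrays A and -0.049 to 0.17 with 1 array left out. With 1 array left out the tissue difference of Fcgr3 ranged from -0.94 to 0.40, from -1.60 to 1.09 in knockout and from -1.50 to 0.93 in wild-type arrays. Over both genotypes that of Fcgrt ranged from -2.82 to -1.29, without wild-type spleen array B. That of Fcgr2b ranged from -1.25 to -0.50, without wild-type lymph node array A. In wild-type arrays that of Fcgr2b ranged from -0.77 to 0.037 and that of Fcgr4 from -0.51 to 0.79. The knockout difference of Fcgrt in spleen ranged from -0.21, without wild-type array B, to 2.84. With the Y-linked covariate the knockout differences in spleen and lymph node were 3.03 and 2.89 for Fcgr3 and 1.98 and 1.92 for Fcgrt. They were 3.48 and 3.83 for Fcgr1, 1.43 and 2.83 for Fcgr2b and 1.04 and 3.01 for Fcgr4. The knockout differences of the 4 Fc gamma receptors kept their sign in every alternative that gave a value. The group was chosen on these signals, and Fcgr1, Fcgr2b and Fcgr4 passed the main filter through knockout arrays alone. The kept sign was thus in part set beforehand and is only a description. Fcgr1 ranged from 1.29 to 4.04 in spleen and from 1.95 to 4.60 in lymph node, lowest with the mean of its probe sets. Fcgr2b ranged from 0.84 to 2.61 in spleen and from 1.80 to 3.69 in lymph node, lowest with the 40th percentile floor. Fcgr3 ranged from 0.84 to 3.53 in spleen and from 0.94 to 3.37 in lymph node. Fcgr4 ranged from 0.058, without knockout array A, to 2.12 in spleen and from 1.84 to 4.31 in lymph node. Without a value, because they fell under the filter, were Fcgr2b in 5 of 22 alternatives, Fcgr1 in 3 and Fcgr4 in 2. One of these for Fcgr1 was the alternative with no floor, where 1436625_at stood for the gene and fell under the filter. That probe set had knockout differences of -0.79 in spleen and 0.15 in lymph node, so the kept sign of Fcgr1 does not cover it. The 2 alternatives that took the probe set with the highest linear signal or left out both knockout arrays A were chosen after seeing the data. The causes of these changes were not tested.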

Other observations

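Marker lists of other cells were followed as summed signals. Plasma cell markers (6 of 6 measured) summed to 1162 to 12365 in knockout spleen and 1129 to 4573 in wild-type spleen, and to 1097 to 2271 in knockout lymph node and 511 to 1361 in wild-type lymph node. Platelet and megakaryocyte markers (4 of 5 measured) summed to 262 to 1973 in knockout spleen against 67.1 to 148 in wild-type spleen, and to 713 to 807 in knockout lymph node against 183 to 513 in wild-type lymph node. These sums did not overlap between genotypes, although only 2 of the 4 markers lay above wild-type without overlap in each tissue. The chemokine Pf4 had the highest deposited signals of the 4 in knockout spleen, at 1579 and 209. The sums are of scaled signals, so its part in them is not given. Monocyte markers (8 of 9 measured) summed to 1284 to 2121 in knockout spleen and 1644 to 1880.2 in wild-type spleen, and to 1529 to 2182 in knockout lymph node and 1869.8 to 1908 in wild-type lymph node. The plasma cell and monocyte sums overlapped between genotypes. For monocytes the order depended on the measure. By mean log2 signal of the 8, knockout spleen was at 6.80 and 6.17 against 5.55 and 5.51 in wild-type spleen. Knockout lymph node was at 7.07 and 6.49, against 6.08 and 5.95 in wild-type lymph node. In each tissue 3 of the 8 lay above wild-type without overlap and 1 below. Of all tested genes 13.3% and 23.9% did so in spleen, 14.6% and 16.2% in lymph node.

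Erythroid markers (5 of 7 measured) summed to 1580.5 to 2381 in knockout spleen and 234 to 2573 in wild-type spleen, and to 56.5 to 111 in knockout lymph node and 137 to 312 in wild-type lymph node. The part of these cells in the receptor values was not tested. Of the remaining 6 lists, T cell markers lay above wild-type without overlap for 1 of 7 genes in knockout spleen and 0 in knockout lymph node, and below it for 4 and 1. Natural killer cell markers did so for 0 of 7 in either direction. The counts above wild-type in knockout spleen and knockout lymph node were 1 and 1 of 6 for plasmacytoid dendritic cells, 1 and 0 of 7 for mast cells and basophils, 2 and 2 of 8 for endothelium and 2 and 3 of 7 for follicular and fibroblastic stroma. The counts below wild-type were 1 and 2 for plasmacytoid dendritic cells, 2 and 1 for mast cells and basophils, 2 and 2 for endothelium and 1 and 1 for stroma. Over all tested genes 13.3% lay above wild-type in spleen and 14.6% in lymph node, and 23.9% and 16.2% lay below it.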
